A study of Homo sapiens with 9 samples.

Results

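The immediate early response genes followed here in SKNO-1 cells after knockdown of ASXL2 were FOS, FOSB, JUN, JUNB, EGR1, EGR2, EGR3, IER2, DUSP1 and ATF3. They were chosen by name, with earlier results of these data known. They make up 10 of the 25680 gene symbols in the deposited tables, each read from its RefSeq transcript with the highest total. SKNO-1 is a human acute myeloid leukaemia line that carries the AML1-ETO (RUNX1-RUNX1T1) fusion, and per the study's methods it was grown with serum and the cytokine GM-CSF. The 9 RNA-seq samples formed 3 groups of 3, which were EV (the control), SH2 and SH3 (cells with either of 2 shRNAs against ASXL2, a Polycomb-associated chromatin regulator). The fusion and the line are shared by all groups, the study describes its control as a control shRNA where the labels write EV, and the study's methods call the RNA-seq samples of a group biological replicates. Neither they nor the labels say whether each was a culture of its own, so p values measure the spread between these samples. In every group the samples are numbered 1, 13 and 25, and the labels do not say what the numbers stand for. Each number occurs once in a group. P values between numbers therefore set a difference against its spread over EV, SH2 and SH3, not against repeats of a number. The questions were whether the genes differed between the shRNAs and EV within a number, and whether they differed between the numbers.

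Totals were 27714431 to 35406063 counts per sample with 1 transcript per gene, so that 3 counts, the smallest level taken as visible, were worth 0.0847 to 0.1082 CPM. CPM is the count scaled to a common library size, after correction by the trimmed mean of M values, and such limits cover counting error only. ASXL2 itself was at 67.9, 67.9 and 74.7 CPM in EV numbers 1, 13 and 25, at 30.4, 36.2 and 36.2 CPM with SH2, and at 26.9, 29.1 and 41.1 CPM with SH3. Of 7 myeloblast markers, KIT (237 to 419 CPM), RUNX1T1, MPO, CD33, ANPEP and SPI1 were plainly expressed, and CD34 was near 0 with at most 10 counts. The 12 markers of T cells, monocytes, fibroblasts and epithelium had at most 5 counts each. The SH3 sample numbered 1 stood apart: its chi-square per degree of freedom against the other SH3 samples was 124 and 135, against 18.2 to 55.9 for the other within-group pairs.

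Immediate early genes are transcribed within minutes of a stimulus without need for new protein, chiefly through MAP kinases that activate serum response factor with its ELK partners, and through CREB. Most encode transcription factors with short-lived transcripts and proteins: the FOS and JUN families pair to form AP-1, the EGR proteins are zinc-finger activators, and ATF3 is a stress-induced relative of AP-1. DUSP1 is a nuclear phosphatase that switches off MAP kinases, and IER2 is a small nuclear protein of the same early wave. In myeloid cells these genes are known to respond to cytokines such as GM-CSF, to serum and to differentiation signals.

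The promoters of the 4 genes that differed most between the numbers, EGR1, FOS, FOSB and DUSP1, are printed to show the sites such signals are known to use. Each run is the 150 bases before the RefSeq start site, 5′ to 3′ on the gene's own strand. Positions are on GRCh38.p14: EGR1 at chr5:138465329-138465478 (plus strand), FOS at chr14:75278678-75278827 (plus), FOSB at chr19:45467846-45467995 (plus) and DUSP1 at chr5:172771196-172771345 (minus). Capitals mark the CArG box, which serum response factor binds, TGACG (CREB half-site, which lies within the full site TGACGTCA) and TATAAA (the TATA element), on either strand.
EGR1: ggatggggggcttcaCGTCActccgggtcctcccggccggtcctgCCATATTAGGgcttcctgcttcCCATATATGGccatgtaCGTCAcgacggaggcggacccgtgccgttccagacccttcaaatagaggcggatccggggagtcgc
FOS: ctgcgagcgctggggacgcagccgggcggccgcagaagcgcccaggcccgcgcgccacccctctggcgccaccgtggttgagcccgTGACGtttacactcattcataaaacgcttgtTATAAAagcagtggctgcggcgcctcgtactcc
FOSB: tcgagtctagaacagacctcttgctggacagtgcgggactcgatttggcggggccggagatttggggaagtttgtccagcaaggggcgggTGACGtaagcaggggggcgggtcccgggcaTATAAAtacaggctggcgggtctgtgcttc
DUSP1: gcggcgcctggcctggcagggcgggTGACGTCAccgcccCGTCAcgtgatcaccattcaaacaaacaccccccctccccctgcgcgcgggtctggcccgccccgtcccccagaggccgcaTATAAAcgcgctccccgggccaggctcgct

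In these runs EGR1 held CArG boxes starting 105 and 83 bases before the start site, with TGACG on the opposite strand at 135 and 66 bases. FOS held TGACG at 64 bases and TATAAA at 33 bases, FOSB held the same letters at 60 and 30 bases, and DUSP1 held the full TGACGTCA at 125 bases and TATAAA at 30 bases. RefSeq promoter windows of 300 bases (250 before and 50 after the start) were found for 9 of the 10 genes, all but EGR3, in 12 windows. The CArG box was in the windows of EGR1 and EGR2 and in 1.29% of the 35116 promoter windows of all genes. TGACGTCA was in DUSP1 and in 1.85% of all windows. TGACG was in 8 of the 9 genes and in 24.6% of all windows, and TATAAA was in FOS, FOSB, JUNB, DUSP1 and ATF3 and in 11.5% of all windows. The AP-1 site TGAGTCA (4.95% of all windows) and the EGR sites GCGTGGGCG (0.795%) and GCGGGGGCG (5.07%) were in none of the 9 genes' windows. These matches describe letters within short windows and say nothing of binding in these cells. Sequence more than 250 bases before the start was not searched, so a gene without a match here may hold the site further upstream.

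Compared per length, as CPM per kilobase of the GENCODE transcript, the most abundant of the genes over the 9 samples were IER2 at 47.4 ± 10.3, JUNB at 37.7 ± 8.14 and EGR1 at 25.5 ± 23.4 (SD, n = 9). FOS followed at 7.05 ± 8.83, then JUN at 4.61 ± 1.51, DUSP1 at 1.76 ± 1.30, ATF3 at 1.42 ± 0.707 and FOSB at 1.31 ± 1.00 CPM per kilobase (SD, n = 9). EGR2 and EGR3 were lowest at 0.0722 ± 0.0692 and 0.0306 ± 0.0313 CPM per kilobase (SD, n = 9). Neighbours in this order overlapped between samples except FOSB and EGR2, where the lowest FOSB sample was at 0.248 and the highest EGR2 sample at 0.244 CPM per kilobase. The order also changed with the number. At number 25 EGR1 stood at 54.4 ± 11.2, beside IER2 at 54.9 ± 4.01, and at number 13 it stood at 3.46 ± 0.248 against 35.5 ± 2.47 for IER2 (CPM per kilobase, SD, n = 3).

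**Figure D1:**
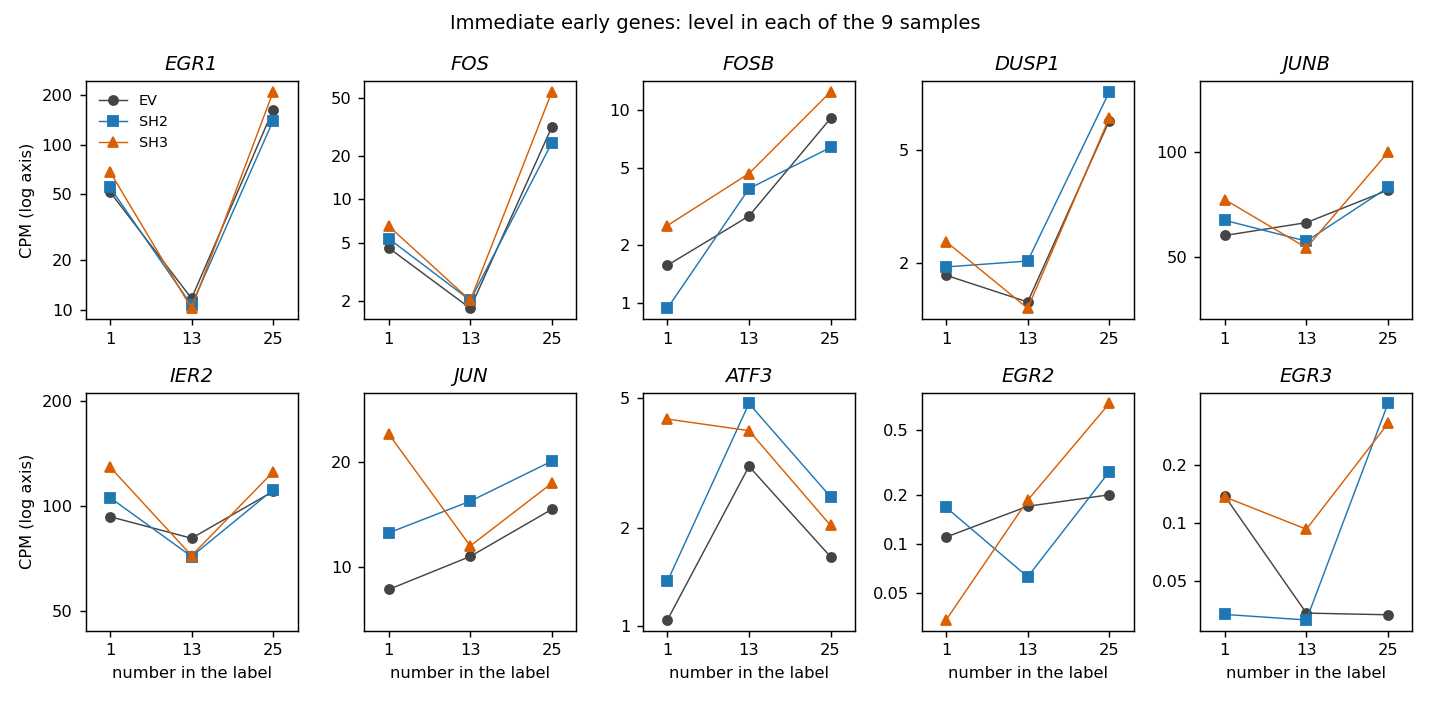
Level of each gene in each sample, in CPM on a log axis, against the number in the label (1, 13, 25, as categories), with EV as circles, SH2 as squares and SH3 as triangles, and lines that only join the samples of a group. EGR1 and FOS are lowest at number 13 and highest at number 25 in all 3 groups, and EGR2 and EGR3 rest on 1 to 20 counts a sample.

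The largest differences lay between numbers 25 and 13, and they were of the same direction in EV, SH2 and SH3. EGR1 (NM_001964), a zinc-finger activator of the first transcriptional wave, lies on chromosome 5 at 137801168 to 137804992 (plus strand, GRCh37). It was at 51.8, 11.7 and 163 CPM in EV numbers 1, 13 and 25, at 55.1, 10.6 and 140.0 CPM with SH2, and at 68.5, 10.2 and 209 CPM with SH3. The 3 samples numbered 13 lay far below all others, and the 3 numbered 25 lay above all others. Within a group, number 25 was 13.9-fold above number 13 in EV, 13.2-fold in SH2 and 20.5-fold in SH3. In edgeR's quasi-likelihood test with group and number as terms, EGR1 was 15.5-fold higher at number 25 (log2 difference 3.96, SE 0.13, adjusted p = 1.21e-07, Benjamini-Hochberg over 14199 genes), the smallest p of all genes tested. Since the RNA came from bulk cells, more cells that express a gene and more RNA per cell cannot be told apart here.

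FOS (NM_005252), the AP-1 subunit that needs a JUN partner to bind DNA, lies on chromosome 14 at 75745529 to 75748933 (plus strand). Its values were 4.62, 1.77 and 31.6 CPM in EV numbers 1, 13 and 25, 5.36, 2.01 and 24.5 CPM with SH2, and 6.54, 2.01 and 55.2 CPM with SH3. The 3 numbers did not overlap, with number 13 lowest (52 to 65 counts), number 1 next and number 25 highest (708 to 1515 counts). FOS was 18.5-fold higher at number 25 than at number 13 (log2 difference 4.21, SE 0.20, edgeR adjusted p = 3.26e-06), the largest fold of the 14199 genes. DUSP1 (NM_004417), the MAP kinase phosphatase, lies on chromosome 5 at 172195099 to 172198198 (minus strand). It was at 1.82, 1.46 and 6.34 CPM in EV, 1.94, 2.04 and 8.01 CPM with SH2, and 2.38, 1.39 and 6.48 CPM with SH3, so that number 25 stood alone and numbers 1 and 13 overlapped. DUSP1 was 4.26-fold higher at number 25 than at number 13 (log2 difference 2.09, SE 0.18, edgeR adjusted p = 0.000674).

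FOSB (NM_006732), a FOS relative with a long and a short protein form, lies on chromosome 19 at 45971253 to 45978437 (plus strand). It was at 1.57, 2.82 and 9.07 CPM in EV numbers 1, 13 and 25, 0.938, 3.92 and 6.41 CPM with SH2, and 2.52, 4.69 and 12.5 CPM with SH3. Unlike EGR1 and FOS, FOSB was lowest at number 1 in each group. JUNB (NM_002229), a JUN relative with weaker activating function, lies on chromosome 19 at 12902300 to 12904129 (plus strand). It varied less, at 57.5, 62.6 and 77.6 CPM in EV, 63.6, 55.3 and 78.99 CPM with SH2, and 72.9, 53.0 and 99.6 CPM with SH3. IER2 (NM_004907), on chromosome 19 at 13261225 to 13265725 (plus strand), was at 93.3, 80.9 and 110.3 CPM in EV, 105.8, 71.6 and 111.5 CPM with SH2, and 129.7, 72.1 and 125.5 CPM with SH3. In each of FOSB, JUNB and IER2 the 3 samples numbered 25 lay above the 3 numbered 13. The log2 differences were 1.25 for FOSB (SE 0.20, edgeR adjusted p = 0.00817), 0.62 for IER2 (SE 0.10, edgeR adjusted p = 0.00844) and 0.57 for JUNB (SE 0.11, edgeR adjusted p = 0.0143).

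JUN (NM_002228), the chief DNA-binding partner of FOS, and ATF3 did not pass between these numbers. JUN lies on chromosome 1 at 59242517 to 59249720 (minus strand) and was at 8.61, 10.7 and 14.6 CPM in EV numbers 1, 13 and 25, at 12.5, 15.5 and 20.1 CPM with SH2, and at 24.1, 11.5 and 17.4 CPM with SH3. Its 25 against 13 log2 difference was 0.47 (SE 0.24, 95% interval -0.05 to 0.99, edgeR adjusted p = 0.258). ATF3 (NM_001040619), which is induced by endoplasmic reticulum and amino acid stress, lies on chromosome 1 at 212738676 to 212794119 (plus strand). It was at 1.05, 3.10 and 1.63 CPM in EV, 1.37, 4.83 and 2.50 CPM with SH2, and 4.32, 3.98 and 2.04 CPM with SH3. Its 3 samples numbered 25 lay below the 3 numbered 13, by -0.95 on the log2 scale (SE 0.34, 95% interval -1.71 to -0.19, edgeR adjusted p = 0.126). Without the SH3 sample numbered 1, which has neither of these numbers but shares the fit, both passed: JUN at 0.48 (edgeR adjusted p = 0.00168) and ATF3 at -0.94 (edgeR adjusted p = 0.00109). In that fit 9.87% of all genes were higher and 9.37% lower at number 25, against 2.77% and 3.10% with all libraries.

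Of the 8 genes that passed the filter on low counts, 6 were therefore higher at number 25 than at number 13, where 2.77% of all 14199 genes were higher and 3.10% were lower. The 3 samples of number 25 lay above those of number 13 in 6 of the 8 genes, against 15.9% of all genes, and below them in ATF3, against 15.7%. The median log2 difference of the 8 genes was 0.94, and that of all genes was -0.00. As the genes were chosen with earlier results of these data known, these shares and medians describe them and are not a test. EGR1, FOS and DUSP1 passed without any 1 of the 9 libraries. FOSB was lost without SH3 25 (1.27, edgeR adjusted p = 0.0685) or EV 25 (1.15, 0.0851). JUNB and IER2 were lost without either of these, at edgeR adjusted p values of 0.0928 and 0.0584 without SH3 25 and 0.0647 for both without EV 25. They were also lost without SH2 13 (0.0807 and 0.0683) or SH2 25 (0.0793 and 0.0701), while their log2 differences stayed between 0.43 and 0.76. Fewer genes of any kind passed in those fits, with 93 of all genes called without SH3 25 and 50 without EV 25, against 833 with all libraries.

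**Figure D2:**
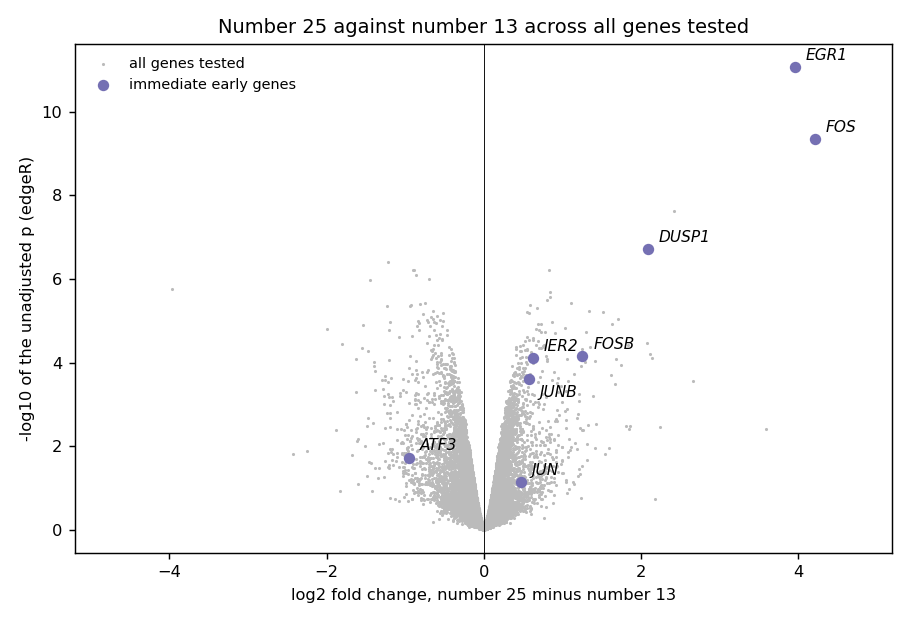
Log2 difference of number 25 minus number 13 (x axis) against the -log10 of edgeR's unadjusted p (y axis) for the 14199 genes tested, with the 8 immediate early genes that passed the filter marked. EGR1 (3.96) and FOS (4.21) lie apart at the upper right, DUSP1 (2.09) follows, and ATF3 (-0.95) is the 1 gene of the 8 left of 0.

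At number 1 the genes took different places: EGR1, FOS and IER2 were above their number 13 level, and FOSB was below it. Against number 13, EGR1 was 5.35-fold higher at number 1 (log2 difference 2.42, SE 0.12, edgeR adjusted p = 7.39e-06), FOS 2.84-fold higher (1.51, SE 0.21, 0.00166) and IER2 1.45-fold higher (0.54, SE 0.10, 0.00479). In the same comparison FOSB was 2.35-fold lower (log2 difference -1.23, SE 0.23, edgeR adjusted p = 0.00470). Of all genes, 18.0% were higher and 16.2% lower at number 1 than at number 13. ATF3 was at -0.94 (SE 0.34, edgeR adjusted p = 0.0542) and passed in DESeq2 (-0.98, adjusted p = 0.0191) and in edgeR without the low-count filter (-0.95, adjusted p = 0.0143). It also passed without SH3 1 (-1.70, edgeR adjusted p = 8.63e-05) or SH3 13 (-1.30, 0.0462), and JUNB at 0.17 (edgeR adjusted p = 0.227) passed without EV 13 (0.32, 0.0375).

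Between numbers 25 and 1, FOS was 6.51-fold higher at number 25 (log2 difference 2.70, SE 0.17, edgeR adjusted p = 3.05e-05), FOSB 5.60-fold (2.49, SE 0.22, 0.000171), DUSP1 3.37-fold (1.75, SE 0.17, 0.000221), EGR1 2.90-fold (1.54, SE 0.11, 7.31e-05) and JUNB 1.32-fold (0.40, SE 0.11, 0.0118). That is 5 of the 8 genes, where 21.5% of all genes were higher at number 25 than at number 1. IER2 did not pass, at 0.08 (SE 0.10, 95% interval -0.14 to 0.30). JUNB was lost without SH3 25 (0.32, edgeR adjusted p = 0.0735) or EV 1 (0.32, 0.0572), JUN at 0.27 (edgeR adjusted p = 0.365) passed without SH3 1 (0.76, 9.95e-05), and ATF3 at -0.01 turned to 0.76 without it (edgeR adjusted p = 0.0118).

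Number 1 against the mean of 13 and 25 differed in 46.3% of all genes, and 4 of the 8 immediate early genes passed, a share near that background. FOSB was at -1.86 (SE 0.20, edgeR adjusted p = 0.000246), DUSP1 at -0.71 (SE 0.16, 0.00536), FOS at -0.60 (SE 0.17, 0.0146) and EGR1 at 0.44 (SE 0.10, 0.00471) on the log2 scale. FOS did not pass without SH3 1 (-0.45, edgeR adjusted p = 0.0614) or EV 1 (-0.56, 0.0574). Without SH3 1, JUN (-0.52, edgeR adjusted p = 0.000892) and ATF3 (-1.23, 0.000316) passed, which with all libraries were at -0.04 and -0.47. IER2, at 0.23 (edgeR adjusted p = 0.0507), passed in DESeq2 (0.22, adjusted p = 0.0419), without EV 1 (0.35, edgeR adjusted p = 0.0127) or without EV 13 (0.29, 0.0114), and JUNB, at -0.11, passed without SH3 13 (-0.19, 0.0425). These 4 comparisons of numbers share samples and are given side by side for that reason.

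EGR2 and EGR3, the paralogues of EGR1, stayed at 20 counts or fewer in every sample. EGR2 (NM_000399) lies on chromosome 10 at 64571756 to 64578927 (minus strand) and had 4, 5 and 6 counts in EV numbers 1, 13 and 25, 5, 2 and 8 with SH2, and 1, 6 and 20 with SH3. EGR3 (NM_001199880) lies on chromosome 8 at 22545172 to 22550993 (minus strand) and had 5, 1 and 1 counts in EV, 1, 1 and 12 with SH2, and 4, 3 and 9 with SH3. Neither passed the filter on low counts. In an exact two-sided permutation test of log2(CPM + 0.5), EGR2 was higher at number 25 than at number 13 by 0.46 (p = 0.100, the smallest that 20 splits allow) and EGR3 by 0.42 (p = 0.300, exact permutation test). For both shRNAs against EV the differences were 0.11 (p = 0.750) and 0.22 (p = 0.381) in exact permutation tests over 84 splits, which can reach 0.0119. For number 1 against 13 and 25 they were -0.31 (p = 0.226) and -0.09 (p = 0.786) in the same exact test. Differences between the groups were not detectable at this depth. In an edgeR fit without the low-count filter, number 25 exceeded number 13 by 1.46 in EGR2 (SE 0.61, adjusted p = 0.195) and by 2.18 in EGR3 (SE 0.85, adjusted p = 0.157) on the log2 scale. In that fit EGR2 passed for number 25 minus 1, at 1.81 (SE 0.64, adjusted p = 0.0367), and EGR3 did not, at 1.18 (SE 0.74, adjusted p = 0.265).

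**Figure D3:**
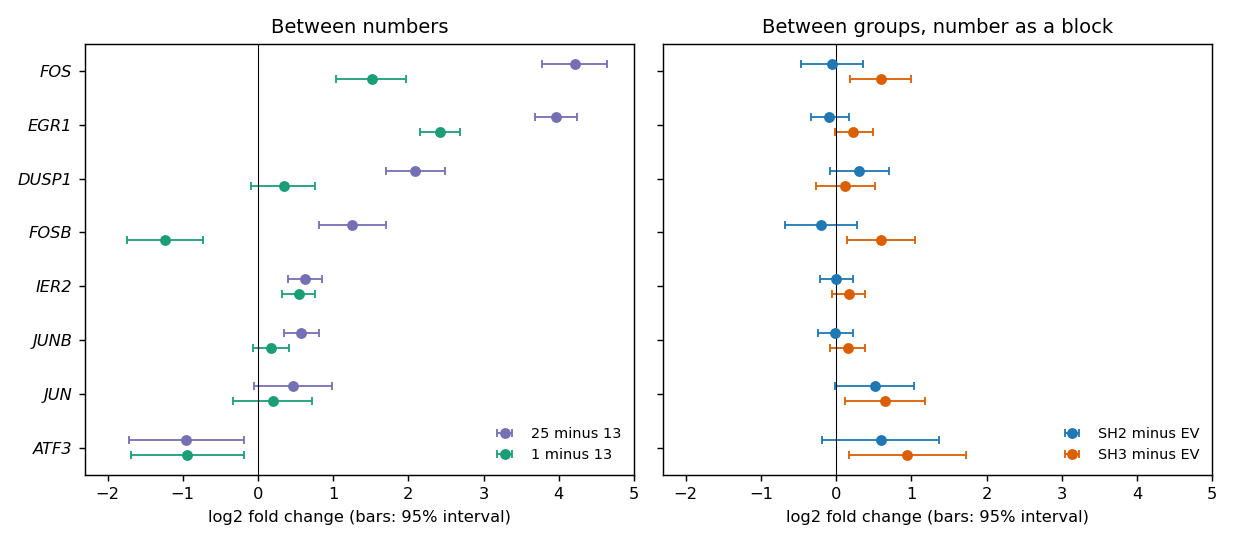
Log2 differences with 95% intervals from edgeR for the 8 genes that passed the filter, on 1 scale in both panels: number 25 minus 13 and number 1 minus 13 (left), SH2 minus EV and SH3 minus EV with the number as a block (right). FOS and EGR1 lie near 4 between numbers 25 and 13, and no difference from EV exceeds 0.94.

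Between the shRNAs and EV, none of the 8 genes passed. With groups alone in the edgeR fit, 0 genes of all kinds passed for SH2, SH3, both shRNAs averaged or SH3 against SH2 (0% in each), with 762, 723, 942 and 293 genes at an unadjusted p under 0.05. With the number as a block, 0.282%, 0.416%, 1.10% and 0.106% of all genes passed in these comparisons, still without any of the 8. At an unadjusted p under 0.05 the block fit held 0, 4, 2 and 3 of them, and 2656, 2652, 2902 and 1693 of all genes. DESeq2 called none of the 8 in any of the 4 comparisons, with or without the block. ASXL2 itself did not pass with groups alone, at edgeR adjusted p values of 0.808 for SH2, 0.612 for SH3 and 0.177 for both shRNAs. With the block it passed, at edgeR adjusted p values of 0.00469, 0.00407 and 0.000980. The fit of groups alone thus missed the knockdown itself, and its lack of calls says little about the 8 genes. The median log2 difference of the 8 genes for both shRNAs was 0.18 without the block and 0.21 with it, beside 0.01 for all genes.

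The spread within a group, which holds 1 sample of each number, was widest for FOS and EGR1. For EGR1, both shRNAs against EV came to 0.10 with an SE of 1.00 in the edgeR fit of groups alone, and to 0.07 with an SE of 0.10 (95% interval -0.15 to 0.29, adjusted p = 0.710) with the block. EGR1 with SH3 was 1.32-fold of EV at number 1, 0.871-fold at number 13 and 1.28-fold at number 25, and with SH2 it was 1.06-, 0.908- and 0.859-fold. FOS with both shRNAs was at 0.27 (SE 0.16, 95% interval -0.08 to 0.62, edgeR adjusted p = 0.363 with the block). The block intervals for both shRNAs were -0.11 to 0.28 for IER2, -0.13 to 0.28 for JUNB, -0.12 to 0.56 for DUSP1 and -0.21 to 0.60 for FOSB.

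JUN and ATF3 were the genes that lay above the EV sample of their number in 6 of 6 pairs, a pattern shown by 11.6% of all genes. JUN was 1.45-, 1.44- and 1.38-fold of EV with SH2 at numbers 1, 13 and 25, and 2.80-, 1.07- and 1.19-fold with SH3. With the number as a block the log2 difference for both shRNAs was 0.58 (SE 0.21, 95% interval 0.12 to 1.04, edgeR adjusted p = 0.162), and with groups alone it was 0.57 (SE 0.26, edgeR adjusted p = 0.761). ATF3 was 1.31-, 1.56- and 1.53-fold of EV with SH2 and 4.14-, 1.29- and 1.25-fold with SH3. For both shRNAs it came to 0.76 (SE 0.31, 95% interval 0.08 to 1.45, edgeR adjusted p = 0.202) with the block and to 0.72 (SE 0.46, edgeR adjusted p = 0.858) without it. Neither passed across genes.

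The SH3 sample numbered 1 held the highest ratio of both genes, and leaving it out changed their calls. Without it the block fit called JUN with SH2 (0.51, SE 0.08, edgeR adjusted p = 0.00499), JUN with both shRNAs (0.34, SE 0.08, 0.0177) and ATF3 with SH2 (0.57, SE 0.16, 0.0381). That fit called 1604 genes of all kinds for SH2 and 1755 for both shRNAs, against 40 and 156 with all libraries. Of the 10 tested genes in a list of stress partners of ATF3, 9 were highest in this sample among the 3 numbered 1, all but CEBPG, where 36.7% of all genes were. CHAC1, a glutathione-degrading enzyme named after its values were seen, was at 9.13 CPM there, 0.798 CPM in EV 1, 1.24 CPM in SH2 1 and 4.52 to 6.49 CPM in the samples numbered 13. DDIT4, an inhibitor of mTOR signalling, was at 130.03 CPM in SH3 1 against 39.2 and 40.4 CPM in EV 1 and SH2 1. Its part in the JUN and ATF3 values was not tested beyond leaving it out.

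**Figure D4:**
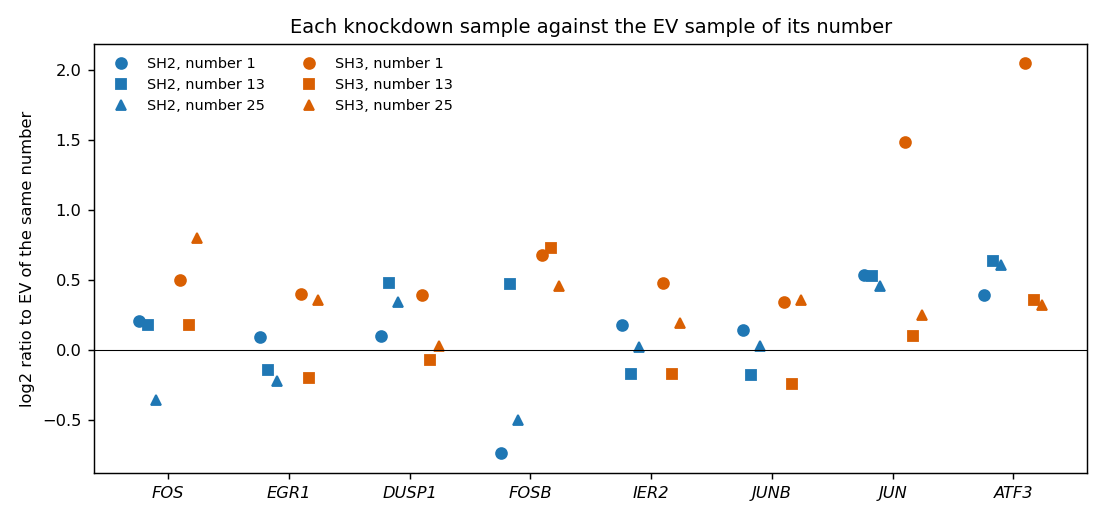
Log2 ratio of each knockdown sample to the EV sample of its number for the 8 genes, with SH2 in blue, SH3 in orange, and the number given by the marker. JUN and ATF3 lie above 0 in all 6 pairs with SH3 number 1 highest (1.49 and 2.05), and FOS and FOSB lie on both sides of 0 for SH2.

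The shRNAs differed most from each other in FOS and FOSB, and neither passed. FOS with SH3 was 1.41-, 1.13- and 1.75-fold of EV at numbers 1, 13 and 25, and with SH2 it was 1.16-, 1.13- and 0.777-fold. SH3 exceeded SH2 in FOS by 0.65 (SE 0.18, 95% interval 0.24 to 1.05, edgeR adjusted p = 0.226 with the block) and SH3 exceeded EV by 0.59 (SE 0.18, edgeR adjusted p = 0.133 with the block). FOSB with SH3 was 1.61-, 1.66- and 1.37-fold of EV, and with SH2 it was 0.598-, 1.39- and 0.707-fold, which gave a difference of 0.79 between them (SE 0.21, 95% interval 0.32 to 1.26, edgeR adjusted p = 0.198 with the block). Without SH3 1 in the block fit, FOS passed for SH3 against EV (0.73, edgeR adjusted p = 0.0344) and against SH2 (0.83, 0.0438). Without SH3 13, FOS (0.79, edgeR adjusted p = 0.0477) and EGR1 (0.46, 0.0305) passed between the shRNAs, where EGR1 had been at 0.32 (edgeR adjusted p = 0.324). More genes of all kinds passed in these fits. For SH3 against EV 368 were called without SH3 1, against 59 with all libraries. For SH3 against SH2 103 were called without SH3 1 and 257 without SH3 13, against 15 with all libraries.

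Whether the knockdown effect differed at number 1 from that at numbers 13 and 25 was tested as an interaction, which called 0% of all genes (669 at an unadjusted p under 0.05) and none of the 8. IER2 came nearest, at 0.36 (SE 0.15, 95% interval 0.02 to 0.71, edgeR adjusted p = 0.948). JUN was at 0.73 (SE 0.40) and ATF3 at 0.89 (SE 0.65), both at an edgeR adjusted p of 0.948. Without SH2 1, where SH3 1 alone stood for the knockdown at number 1, JUN came to 1.31 and ATF3 to 1.70. These values rest on that 1 sample, and many genes of all kinds were called in that fit.

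Other genes of the early response were read from lists of the pathway, beside the shares of all genes given above, 2.77% higher and 3.10% lower for number 25 minus 13. For number 1 against 13 and 25 those shares were 24.1% higher and 22.2% lower. Of 45 tested genes in a list of other immediate early genes, 8 were higher at number 25 and 4 were lower than at number 13 (17.8% and 8.89%), and their median log2 difference was 0.00. CD69, an early activation antigen of leukocytes, was at 62.7, 25.04 and 114 CPM in EV numbers 1, 13 and 25, 65.7, 19.3 and 112 CPM with SH2, and 101, 18.8 and 112 CPM with SH3. CD69 was thus lowest at number 13 and highest at number 25, in the order of EGR1 and FOS, by 2.42 on the log2 scale for number 25 minus 13 (SE 0.17, edgeR adjusted p = 0.000109). SOCS3, an inhibitor of cytokine receptor signalling, was higher by 1.52 (SE 0.18, edgeR adjusted p = 0.00326) and CYR61, a secreted matrix protein, by 1.11 (SE 0.13, 0.00283). Those lower included NFKBIA, the inhibitor of NF-kappa-B, at -0.75 (SE 0.09, edgeR adjusted p = 0.00283), and BTG2, an antiproliferative gene, at -0.64 (SE 0.08, 0.00326), both named after their values were seen. The nuclear receptor NR4A1 passed for number 1 against 13 and 25, at 0.94 (SE 0.26, edgeR adjusted p = 0.0133), and in that comparison 15 of the 45 were higher and 11 lower (33.3% and 24.4%, the latter near the share of all genes). NR4A1 was lost without SH3 1 (0.38, edgeR adjusted p = 0.0788) or SH3 25 (0.80, 0.0598). Without 1 library the counts ranged from 4 to 13 higher and 2 to 9 lower for number 25 minus 13, with the most without SH3 1. The shares of all genes in these fits ranged from 0.153% to 9.87% higher and from 0.195% to 9.37% lower, also with the most without SH3 1. CD69, SOCS3, CYR61, NFKBIA and BTG2 passed that comparison without any 1 library.

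**Figure D5:**
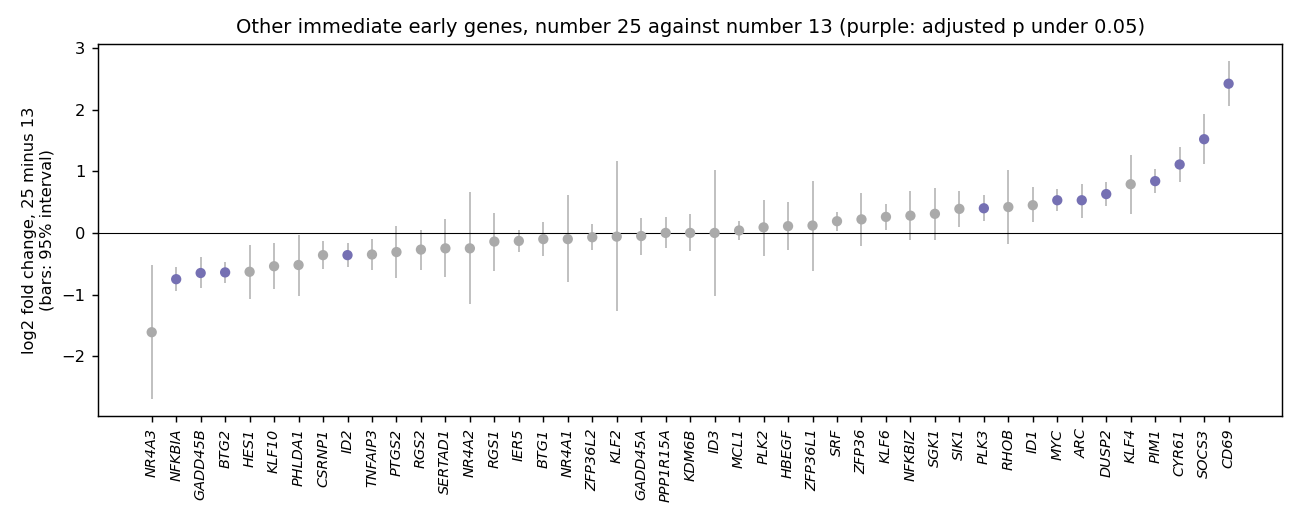
Log2 difference of number 25 minus number 13 with 95% intervals for the 45 tested genes of the list of other immediate early genes, ordered by value. The 12 purple points passed at an edgeR adjusted p under 0.05, with CD69 (2.42), SOCS3 (1.52) and CYR61 (1.11) at the right end.

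Of 11 other AP-1 genes tested, none was higher at number 25 than at number 13, and JDP2, a repressor that competes with FOS for JUN, was lower, at -0.87 on the log2 scale (SE 0.14, edgeR adjusted p = 0.00920). JDP2 was lost without EV 25, SH2 13, SH2 25 or SH3 25, at edgeR adjusted p values of 0.0543 to 0.0835. Against 13 and 25, number 1 had 4 of the 11 higher and 2 lower, beside 24.1% and 22.2% of all genes, among them MAFF (0.90, SE 0.30, edgeR adjusted p = 0.0299), FOSL2 (0.72, SE 0.16, 0.00554) and FOSL1 (-0.46, SE 0.15, 0.0259). MAFF was at 0.23 without SH3 1 (edgeR adjusted p = 0.408) and was also lost without any other SH2 or SH3 library (edgeR adjusted p values of 0.0511 to 0.118). FOSL2 came to 0.44 without SH3 1 (edgeR adjusted p = 0.0169). FOSL1 was lost without EV 1, EV 25 or any of the 3 SH2 samples (edgeR adjusted p values of 0.0572 to 0.148). Without SH3 1 the counts were 2 higher and 4 lower, beside 17.3% and 16.3% of all genes in that fit.

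Among the transcription factors and kinases upstream, 1 of 22 was higher at number 25 than at number 13 and none was lower, with a median of -0.04. It was MAP2K1, a kinase that activates ERK and is named after its value was seen, at 0.27 (SE 0.06, edgeR adjusted p = 0.0359), and it was lost without 6 of the 9 libraries, those of numbers 13 and 25. Number 1 had 3 of the 22 higher and 6 lower than 13 and 25, beside 24.1% and 22.2% of all genes, led by CREM (-0.53, SE 0.14, edgeR adjusted p = 0.0106), MAPK3 (0.43, SE 0.09, 0.00299), RPS6KA5 (0.32, SE 0.09, 0.0159) and SRF (-0.32, SE 0.06, 0.00283). Without SH3 1 these counts were 1 and 2, beside 17.3% and 16.3% of all genes in that fit. CREM was lost without EV 1 (-0.41, edgeR adjusted p = 0.0670), and RPS6KA5 was lost without EV 25 (0.29, 0.0576) or SH3 1 (0.27, 0.0581). The EGR corepressors NAB1 and NAB2, which bind EGR proteins, did not pass: NAB1 was at 0.02 (SE 0.07) and NAB2 at 0.22 (SE 0.09, edgeR adjusted p = 0.168) between numbers 25 and 13.

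Of the 8 tested phosphatases related to DUSP1, 2 were higher at number 25 than at number 13 and 1 was lower. DUSP6, which acts on ERK, was higher by 0.91 (SE 0.13, edgeR adjusted p = 0.00441), and DUSP10, which acts on p38 and JNK, was at -0.91 (SE 0.13, 0.00495). Both were lost without EV 25 or SH2 13, and DUSP10 also without SH3 25, at edgeR adjusted p values of 0.0524 to 0.0541 with little change in size. Number 1 had 5 of them higher and 1 lower than 13 and 25, beside 24.1% and 22.2% of all genes, including DUSP9 (1.33, SE 0.36, edgeR adjusted p = 0.0121, at a mean level of only 0.296 CPM) and DUSP5 (0.80, SE 0.18, 0.00503). Without SH3 1 there were 3 higher, beside 17.3% of all genes in that fit. There DUSP9 was lost (0.85, edgeR adjusted p = 0.122) and DUSP5 came to 0.48 (0.0155). None of the 8 factors that act on AU-rich transcripts, the usual route of decay for FOS messenger RNA, passed between numbers 25 and 13. At number 1, 4 of them were higher and 3 lower than at 13 and 25 in this comparison where 46.3% of all genes were called, with ZFP36 at 0.68 (SE 0.16, edgeR adjusted p = 0.00673), ZFP36L2 at 0.46 (SE 0.08, 0.00171), TIA1 at 0.35 (SE 0.07, 0.00266) and KHSRP at -0.30 (SE 0.07, 0.00643). ZFP36 came to 0.41 without SH3 1 (edgeR adjusted p = 0.0286).

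None of the 10 stress partners of ATF3 passed between numbers 25 and 13, where their median was -0.22. Number 1 had 1 higher and 2 lower than 13 and 25, which were DDIT4 (2.03, SE 0.24, edgeR adjusted p = 0.000368), PPP1R15A (-0.27, SE 0.10, 0.0470) and CEBPG (-0.22, SE 0.06, 0.0102). Without SH3 1, 8 of the 10 were lower and 1 higher in that comparison, and 6 were lower at number 25 than at number 13, beside 16.3% and 9.37% of all genes lower in that fit. PPP1R15A was lost without 7 of the 9 libraries, with -0.14 without EV 1 (edgeR adjusted p = 0.305), and it came to -0.46 without SH3 1 (0.000253). Of 7 tested heat shock genes, which encode chaperones, 4 were higher at number 25 than at number 13 and none was lower, with a median of 0.58, beside 2.77% and 3.10% of all genes. They were HSPH1 at 0.69 (SE 0.15, edgeR adjusted p = 0.0258), HSPA8 at 0.66 (SE 0.10, 0.00630), DNAJB1 at 0.58 (SE 0.08, 0.00544) and HSP90AA1 at 0.52 (SE 0.13, 0.0480). None of the 4 passed without EV 25, SH2 13 or SH3 25, at edgeR adjusted p values of 0.0514 to 0.212. Number 1 had none of the 7 higher and 2 lower, where 22.2% of all genes were lower. The near-identical HSPA1A and HSPA1B cannot be told apart by such reads, and of the pair HSPA1B was tested and did not pass.

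Between the shRNAs and EV, no gene of these lists passed in edgeR with or without the block. Of their 107 tested genes, 3, 7, 7 and 1 were at an unadjusted p under 0.05 for SH2, SH3, both shRNAs and SH3 against SH2 with groups alone, and 13, 23, 18 and 16 with the block. The interaction with number 1 called none of them and had 11 at an unadjusted p under 0.05.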

How the data were processed

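Messenger RNA of 9 SKNO-1 samples was sequenced by the authors from unstranded poly(A) libraries (TruSeq kit). The labels' extraction text speaks of sorted bone marrow, unlike their cell line entry, and the line was taken as the source. The deposited values are whole-number counts per RefSeq transcript on hg19 (48104 rows per sample), not normalized. The submitters' processing notes name STAR, featureCounts and DESeq2 without their roles. Reads shared by isoforms were counted in each, so each symbol was read from its highest row over the 9 samples (9509 symbols had more than 1). Without strand, reads from overlapping antisense genes cannot be separated.

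Counts were tested with edgeR 4.0.16 in R 4.3.3 (quasi-likelihood, filterByExpr with minimum count 10 and total 15, TMM, all 9 samples in a fit). P values were adjusted by Benjamini-Hochberg over the 14199 genes kept, with a threshold of 0.05. Contrasts of groups used groups alone, and contrasts of numbers used group and number. The interaction set the knockdown effect at number 1 against that at 13 and 25. EGR2 and EGR3, below the filter, were tested by exact permutation of log2(CPM + 0.5).

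The groups share the numbers 1, 13 and 25 in the labels, so the fit was also made with the number as a replicate block. Deviations from the group means correlated between same-numbered samples at 0.377 to 0.718 in all 9 pairs, and between other samples at -0.604 to 0.302, so the numbers were taken to pair the samples.

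On simulated counts for 14091 genes with 200 changed by 1 on the log2 scale, 91.0% were recovered for both shRNAs and for number 25 minus 13 with the number in the fit, and 89.5% for both shRNAs with groups alone. Of the calls made there, 1.62%, 6.19% and 0% in the same order were of genes left unchanged. These counts took their spread from the trend with level in the fit with the number, without spread of single genes or an outlying sample. The 91.0% therefore need not carry over to the real fits with the number. The simulated counts also held a number effect in 200 genes only. The 89.5% therefore does not carry over to the real fit of groups alone, where ASXL2 at -1.08 did not pass (both shRNAs, edgeR adjusted p = 0.177). No within-group pair agreed within sampling noise. Alternatives were DESeq2 1.42.0, its size factors, no low-count filter, the mean of a symbol's rows, a transcript length correction with the block, and leaving out each library. The pairs of numbers 1 and 13 and 25 and 1, the test of EGR2 and EGR3 between numbers 25 and 13, leave-one-out with the block, and leave-one-out of the list genes were added after seeing the data.

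Named genes were the 10, ASXL2, and from each list at most 4 genes past the threshold with the largest log2 difference, or else the 2 with the highest level. The genes and the lists (other AP-1 members, other immediate early genes, serum response and CREB factors with their kinases, dual-specificity phosphatases, EGR corepressors, AU-rich element decay factors, stress partners of ATF3 and heat shock genes) were chosen with earlier results of these data known. Positions are from GENCODE on GRCh37, and promoters from RefSeq on GRCh38.p14.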

Additional observations from a re-analysis of the deposited data

Results flagged for a closer look

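Some genes lay on opposite sides of EV at different numbers with both shRNAs, judged by sign alone, a difference that was not tested as such. The share of all genes with this pattern was not counted. Some of the signs rest on very small ratios: SH2 at number 25 was 1.02-fold of EV for JUNB and 1.01-fold for IER2. For JUNB, the mean log2 ratio of SH2 and SH3 to EV was 0.24 at number 1, -0.21 at number 13 and 0.19 at number 25, so that number 1 exceeded number 13 by 0.45 and number 25 exceeded it by 0.40. For IER2 the means were 0.33, -0.17 and 0.10, which put number 1 above number 13 by 0.50 and number 25 above it by 0.27. For EGR1 the mean was 0.25 at number 1 and -0.17 at number 13, a difference of 0.42. Each rests on 1 EV sample per number.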

How the results depend on the processing

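With 3 samples a group the calls of the smaller differences depend on single libraries, and EGR2 and EGR3 rest on 1 to 20 counts, with EGR2 called for number 25 minus 1 in the fit without the low-count filter (1.81, edgeR adjusted p = 0.0367). The number of the 8 genes called between groups was 0 in every group fit under all alternatives with 9 libraries, and the replicate block changed no call of the 8. For number 25 minus 13, 5 to 7 genes were called under the alternatives with 9 libraries and 3 to 8 when each library was left out. Without the group term FOSB was lost there (1.28, edgeR adjusted p = 0.0641) and FOS was lost for number 1 against 13 and 25 (-0.62, edgeR adjusted p = 0.0646), while without the low-count filter ATF3 passed at -0.95 (edgeR adjusted p = 0.0472) and IER2 at 0.21 (edgeR adjusted p = 0.0471) in these respective comparisons. The causes were not tested.

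The values whose sign turned were not called with all libraries in edgeR, and ATF3 for number 25 minus 1 was called after the turn, without SH3 1 (0.76, edgeR adjusted p = 0.0118). With SH2, JUNB (0.00) came to -0.01 with the replicate block, -0.01 in DESeq2 with the block and -0.05 with block and length correction, and IER2 (0.02) came to -0.03 in the last. JUN at number 1 came to 0.02 without the group term, and ATF3 for number 25 minus 1 to 0.04 in DESeq2.

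When each library was left out, with or without the block, the counts called were 0 to 2 for SH2, 0 to 1 for SH3, 0 to 1 for both shRNAs, 0 to 2 for SH3 minus SH2 and 0 to 2 for the interaction. The log2 values that changed sign had these ranges, taken between groups over both fits. For FOS, FOSB, EGR1 and DUSP1 between groups, both ends came from the fit of groups alone. With the block FOS ranged from -0.22 to 0.30 with SH2, 0.26 to 0.73 with SH3 and 0.10 to 0.44 with both shRNAs. EGR1 with the block ranged from -0.18 to 0.02, 0.12 to 0.37 and -0.02 to 0.16 in the same order. The pooled ranges were as follows. With SH2 they were -1.80 to 1.73 for FOS, -0.88 to 0.79 for FOSB, -0.16 to 0.14 for JUNB, -1.22 to 1.11 for EGR1, -0.11 to 0.20 for IER2 and -0.69 to 1.29 for DUSP1. With SH3 they were -1.57 to 2.72 for FOS, -0.30 to 1.59 for FOSB, -0.06 to 0.39 for JUNB, -0.94 to 1.59 for EGR1 and -0.76 to 1.06 for DUSP1. With both shRNAs they were -0.90 to 2.23 for FOS, -0.27 to 1.19 for FOSB, -0.03 to 0.23 for JUNB, -0.54 to 1.35 for EGR1, -0.03 to 0.24 for IER2 and -0.30 to 1.17 for DUSP1. Between the shRNAs they were -1.33 to 2.55 for FOS, -0.06 to 1.44 for FOSB, -0.33 to 0.39 for JUN, -0.07 to 0.39 for JUNB, -0.81 to 1.57 for EGR1, -1.09 to 0.79 for DUSP1 and -0.26 to 0.83 for ATF3. For the interaction they were -0.17 to 0.43 for FOS, -0.67 to 0.14 for FOSB, -0.32 to 0.39 for DUSP1 and -0.26 to 1.70 for ATF3, and it could not be estimated without EV 1. Between numbers they were -0.52 to 0.19 for JUN at number 1 against 13 and 25, -0.28 to 0.42 for JUN at number 1 minus 13, -0.03 to 0.20 for IER2 and -0.38 to 0.76 for ATF3 at number 25 minus 1. With groups alone, a left-out library also left its group without that number. DESeq2 was not run for the interaction.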
